A study of Mus musculus with 2 samples.

Results

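The interferon-induced GTPases of the ileal epithelium are described here as 10 genes, taken by their symbols in the gene table: 6 immunity-related GTPases (*Igtp*, *Irgm1*, *Irgm2*, *Iigp1*, *Tgtp1* and *Tgtp2*) and 4 guanylate-binding proteins (*Gbp2*, *Gbp3*, *Gbp6* and *Gbp7*). They match 11 of 27998 rows, because *Gbp6* names a pair of rows (ENSMUSG00000104713 and ENSMUSG00000079362). The single-cell RNASeq data hold 1 WT library and 1 *Tipe0*-/- library. Each was made from ileal epithelial cells of 3 healthy mice of 8 weeks that were pooled before sequencing, on the C57BL/6 background and with no injury or treatment. The *Tipe0*-/- mice carry a deletion of *Tnfaip8*, whose construction is not given in the sources used here, and the genotype label of that library reads TNFAIP8-/-. The labels of both libraries name enteroids as the starting material. The paper names isolated enterocytes in its methods and describes the profiled cells as the epithelium of undamaged mice. Labels and paper therefore differ, and the sources do not explain why. Pooling leaves 1 sample for each genotype, so no test between genotypes was possible, and the exact 95% intervals given below cover counting error only, not the spread between mice.

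Interferons bind receptors at the cell surface and act through the JAK kinases and STAT proteins, which switch on a large set of target genes. The immunity-related GTPases and guanylate-binding proteins are among the targets that respond most to interferon-gamma, the interferon made mainly by T cells and NK cells. Both families bind and hydrolyse GTP and assemble on the vacuoles of intracellular bacteria and protozoa. *Iigp1*, *Tgtp1* and *Tgtp2* are effectors that attack such vacuoles, whereas *Irgm1*, *Irgm2* and *Igtp* (also called Irgm3) are regulators that sit on the cell's own membranes and keep the effectors inactive there. The guanylate-binding proteins coat bacteria and vacuoles and are tied to inflammasome activation.

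The genes lie in a few clusters of the genome. On GRCm38 (GENCODE M21), *Gbp7* (chromosome 3, 142530342 to 142550149), *Gbp3* (142560026 to 142573209) and *Gbp2* (142620602 to 142638008) follow each other on the plus strand. *Irgm1* (chromosome 11, 48861968 to 48871683), *Tgtp1* (48985327 to 48994172) and *Tgtp2* (49057194 to 49064206) lie on the minus strand of chromosome 11. *Igtp* (58199556 to 58207591) lies on the plus strand of the same chromosome and overlaps *Irgm2* (58199618 to 58222782). The *Igtp* and *Irgm2* annotations share 162 exonic bases, and reads from those bases cannot be assigned to either gene. The last 500 bases of the longest *Tgtp1* and *Tgtp2* transcripts were 100% identical, so a 3′ count can hardly separate the pair and their low values are uncertain. *Gbp6* (chromosome 5, 105270702 to 105293698, minus strand) shares 1726 exonic bases with the gene of its second row, for which GENCODE gives the name *Gm43302*.

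Promoter windows from RefSeq (GRCm38.p6, 250 bases before to 50 bases after the annotated start) were found for 8 of the 10 genes, with a pair of start sites for *Gbp3*. They were searched on both strands for the core of the interferon-stimulated response element (ISRE, GAAANNGAA), the class of site bound by IRF proteins, and for the gamma-activated site (GAS, TTCNNNGAA), a class of site found in many interferon-gamma targets. All 8 genes had an ISRE match, in 8 of 9 windows, and 5 genes had a GAS match (*Gbp7*, *Igtp*, *Irgm2*, *Tgtp1* and *Tgtp2*). Of 32851 promoter windows of the same length, 8.56% held an ISRE match, 8.3% a GAS match and 1.07% both. The whole windows of *Igtp* and *Irgm2* were 73.5% identical and those of *Tgtp1* and *Tgtp2* 67.7%. The genes of each pair are therefore not separate cases in these counts. The RefSeq starts need not match the ends of the GENCODE genes given above. The windows of *Irgm2* (58214727 to 58215026), *Tgtp1* (48992197 to 48992496) and *Irgm1* (48871371 to 48871670) lie inside those genes. So does the second *Gbp3* window (142560106 to 142560405). In 4 immunity-related GTPases the matches stood next to each other, a GAS and an ISRE with 2 bases between them. The arrangement was noticed in these sequences and then counted: it occurs in 8 of the 32851 windows (0.0244%), and the others belong to *Gm12185*, a further GTPase of this family, *Adar*, *Olfr382* and *LOC115488470*. The 4 elements are shown because they are nearly the same in each gene; the matches are in capitals, and *Igtp* and *Irgm2* are on the plus strand and *Tgtp1* and *Tgtp2* on the minus strand of chromosome 11.
*Igtp*, chr11:58199511-58199530: TTCTAGGAActGAAACTGAA
*Irgm2*, chr11:58214902-58214921: TTCCAGGAActGAAACTGAA
*Tgtp1*, chr11:48992315-48992334: TTCCAGGAAtcGAAACTGAA
*Tgtp2*, chr11:49064274-49064293: TTCCAGGAAtcGAAACCGAA

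The whole windows of *Igtp*, *Irgm1*, *Gbp7* and *Gbp2* are shown because these genes stand for the motif arrangements found, and *Irgm1* for the ratio of the libraries nearest to 0. Each runs 5′ to 3′ on the gene's own strand with the matches in capitals. The *Irgm1* window held 2 overlapping ISRE matches and no GAS match, the *Gbp7* window 1 ISRE match and 2 GAS matches, and the *Gbp2* window 1 ISRE match alone. A match is a description of these letters and not evidence of binding.
*Igtp*, chr11:58199306-58199605, plus strand: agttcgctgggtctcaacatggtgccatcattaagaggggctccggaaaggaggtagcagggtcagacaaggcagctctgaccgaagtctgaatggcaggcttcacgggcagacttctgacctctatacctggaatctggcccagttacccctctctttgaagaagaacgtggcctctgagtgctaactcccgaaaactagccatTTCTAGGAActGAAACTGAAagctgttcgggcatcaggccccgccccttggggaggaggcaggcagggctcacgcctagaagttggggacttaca
*Irgm1*, chr11:48871371-48871670, minus strand: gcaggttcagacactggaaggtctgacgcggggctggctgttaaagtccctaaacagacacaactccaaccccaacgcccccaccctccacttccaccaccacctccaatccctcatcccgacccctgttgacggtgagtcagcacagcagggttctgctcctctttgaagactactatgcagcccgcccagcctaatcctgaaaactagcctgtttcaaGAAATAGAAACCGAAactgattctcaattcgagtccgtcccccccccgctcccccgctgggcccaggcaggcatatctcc
*Gbp7*, chr3:142530086-142530385, plus strand: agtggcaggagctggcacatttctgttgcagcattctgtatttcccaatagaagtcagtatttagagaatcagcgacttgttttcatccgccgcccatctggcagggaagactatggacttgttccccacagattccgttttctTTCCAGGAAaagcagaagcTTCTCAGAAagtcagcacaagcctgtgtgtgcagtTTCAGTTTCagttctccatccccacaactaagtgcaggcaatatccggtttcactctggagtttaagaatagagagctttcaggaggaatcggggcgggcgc
*Gbp2*, chr3:142620413-142620712, plus strand: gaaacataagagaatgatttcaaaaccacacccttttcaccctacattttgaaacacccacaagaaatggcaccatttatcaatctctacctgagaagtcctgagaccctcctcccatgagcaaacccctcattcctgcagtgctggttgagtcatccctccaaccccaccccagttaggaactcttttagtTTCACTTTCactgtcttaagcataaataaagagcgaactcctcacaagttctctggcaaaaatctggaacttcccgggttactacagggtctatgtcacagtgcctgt

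The WT library held 3402 cells and 38127808 UMIs and the *Tipe0*-/- library 2006 cells and 23897126 UMIs, with medians of 7760 and 7307.5 UMIs per cell. A UMI (unique molecular identifier) marks 1 captured mRNA molecule, counted from its 3′ end, and levels are UMIs per 1000000 UMIs of the same cells (CPM), with no division by gene length. The 10 genes together gave 4774 WT and 1383 *Tipe0*-/- UMIs. *Tnfaip8*, the deleted gene, had 372 UMIs (9.76 CPM) in WT and 57 (2.39 CPM) in *Tipe0*-/-, so its counts were lower but not 0 in the library labelled as its knockout. Only 9 barcodes occurred in both libraries. Lymphocyte-like cells made up 92 WT and 17 *Tipe0*-/- cells, a difference whose values are given at the end. Over the 11665 genes that reached 50 UMIs when both libraries were added, the log2 ratio (always *Tipe0*-/- over WT) had a median of 0.15, against which the ratios below are to be read.

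In the *Tipe0*-/- library the interferon-induced GTPases were lower as a group. Their summed level was 125 CPM (122 to 129) in WT and 57.9 CPM (54.9 to 61.0) in *Tipe0*-/-, or -1.11 on the log2 scale (-1.20 to -1.03). Of the 7 genes with at least 50 UMIs, 5 were at least 2-fold lower in *Tipe0*-/- (*Igtp*, *Irgm2*, *Iigp1*, *Gbp7* and *Gbp2*) and none was 2-fold higher. Over all genes tested, 2.43% were at least 2-fold lower and 1.53% at least 2-fold higher. All 7 lay below 0, with a median log2 ratio of -1.36, while 3580 of all 11665 genes tested lay below 0. Counts of genes below 0 in the lists further on are to be read against the same share. *Gbp6*, *Tgtp1* and *Tgtp2* did not reach 50 UMIs and also lay below 0, which makes 10 of 10 genes.

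Among the effectors, *Iigp1*, which encodes the vacuole-disrupting GTPase Irga6, had 442 UMIs (11.6 CPM, 10.5 to 12.7) in WT and 72 UMIs (3.01 CPM, 2.36 to 3.79) in *Tipe0*-/-. Its log2 ratio of -1.94 (-2.32 to -1.58) was the lowest among the 7 genes. The 10 cells richest in *Iigp1* held 52.8% of its UMIs in *Tipe0*-/- against 11.5% in WT. It was found in 44 *Tipe0*-/- and 319 WT cells, and 10 cells hold a larger share where fewer are positive. The shares are therefore not alike in the 2 libraries. Without the 10 cells of each library richest in the summed members the ratio was -2.65. The rows of *Tgtp1* and *Tgtp2* together had 50 UMIs in WT (1.31 CPM, 0.973 to 1.73) and 8 in *Tipe0*-/- (0.335 CPM, 0.145 to 0.660), 4 for each gene. Reads from their identical 3′ ends cannot be assigned to either gene. The sum may therefore lie below the level of the pair, which its interval does not cover.

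The 3 regulators were the most abundant members, and they did not share 1 ratio. *Igtp* had 1361 UMIs, or 35.7 CPM (33.8 to 37.6), in WT and 266 UMIs, or 11.1 CPM (9.83 to 12.6), in *Tipe0*-/-, 3.20-fold lower. *Irgm2* had 897 UMIs, or 23.5 CPM (22.0 to 25.1), in WT and 187 UMIs, or 7.83 CPM (6.74 to 9.03), in *Tipe0*-/-, a log2 ratio of -1.59 (-1.82 to -1.36). *Irgm1* had 1351 UMIs, or 35.4 CPM (33.6 to 37.4), in WT and 661 UMIs, or 27.7 CPM (25.6 to 29.9), in *Tipe0*-/-, which is -0.36 on the log2 scale (-0.49 to -0.22). In WT, *Irgm1* made up 49.8% of the joint UMIs of *Irgm1* and *Igtp* (Clopper-Pearson interval, 47.9 to 51.7%), and in *Tipe0*-/- it made up 71.3% (68.3 to 74.2%). The balance of *Irgm2* and *Igtp* was close in both libraries, since *Irgm2* made up 39.7% (37.7 to 41.8%) of that pair in WT and 41.3% (36.7 to 46.0%) in *Tipe0*-/-. Without *Irgm1* the summed level of the members was 89.8 CPM (86.8 to 92.8) in WT and 30.2 CPM (28.0 to 32.5) in *Tipe0*-/-, 2.97-fold lower.

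The guanylate-binding proteins were less abundant, at 17.7 CPM (16.3 to 19) in WT and 7.91 CPM (6.82 to 9.12) in *Tipe0*-/- when summed. *Gbp7*, which had the most UMIs of the 4, went from 362 UMIs (9.49 CPM, 8.54 to 10.5) to 104 UMIs (4.35 CPM, 3.56 to 5.27). *Gbp2*, a GTPase that coats cytosolic bacteria and parasite vacuoles, had 206 UMIs (5.40 CPM, 4.69 to 6.19) and 50 UMIs (2.09 CPM, 1.55 to 2.76), a log2 ratio of -1.36 (-1.84 to -0.92). *Gbp3* had 83 and 27 UMIs (2.18 and 1.13 CPM) and fell just short of a 2-fold difference, at -0.93 (-1.63 to -0.30). *Gbp6* had 22 and 8 UMIs in its first row, a log2 ratio of -0.73 whose interval (-2.16 to 0.44) spans 0, and no UMI in its second row in either library.

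**Figure D1:**
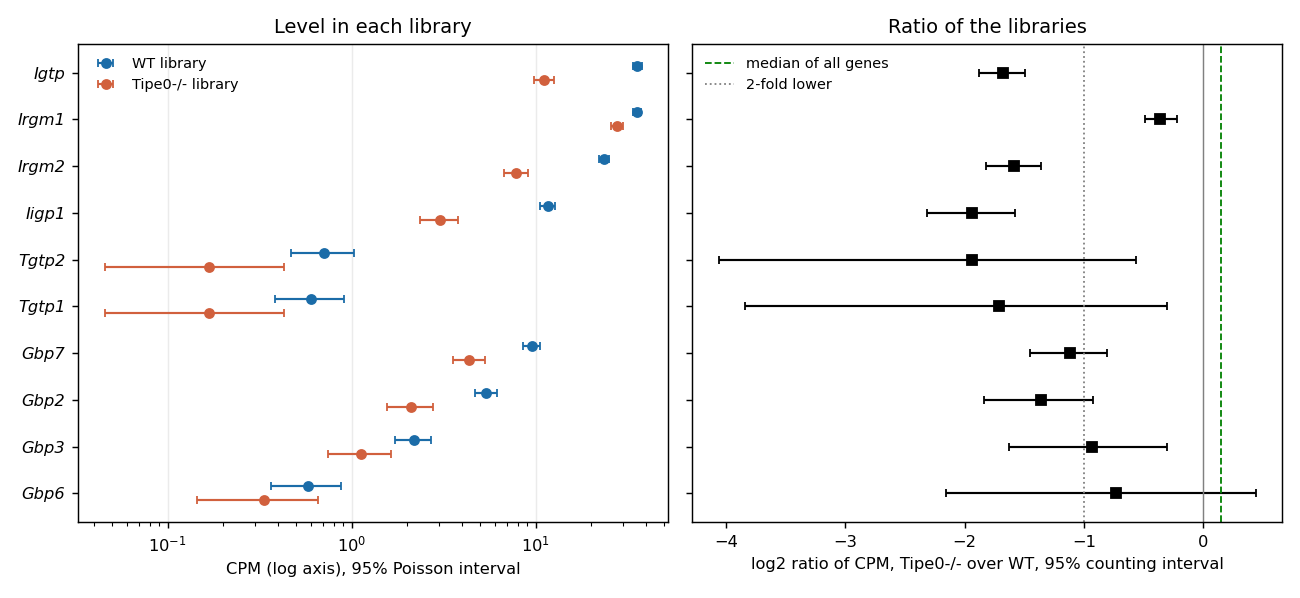
Level of each gene in the WT and *Tipe0*-/- libraries (left, CPM on a log axis, points with 95% Poisson intervals) and the log2 ratio of *Tipe0*-/- over WT with its 95% counting interval (right; dashed line, median of all genes; dotted line, 2-fold lower). The points of all 10 genes lie left of 0, with *Irgm1* nearest to it at -0.36 and *Iigp1* at -1.94. The interval of *Gbp6* spans 0.

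Of the 7 epithelial classes in WT, enterocyte-like and stem-like cells had the highest summed level of these genes and Paneth-like cells the lowest. A cluster of 63 WT cells inside the goblet-like class, cluster 12, stood higher than either, at 268 CPM (229 to 310). Cells were clustered without the members or other interferon genes, and classes are called "like" a cell type from marker genes. Summed levels were 204 CPM (192 to 216) in enterocyte-like cells and 196 CPM (179 to 215) in stem-like cells, which did not differ beyond counting error (log2 ratio of enterocyte-like over stem-like 0.05, -0.10 to 0.21). Goblet-like cells at 129 CPM (122 to 136), tuft-like cells at 121 CPM (106 to 137), cycling-like cells at 117 CPM (107 to 127) and enteroendocrine-like cells at 101 CPM (71.6 to 139) followed, with intervals that overlap. Paneth-like cells, the deepest sequenced class with a median of 20981.5 UMIs per WT cell, had 44.8 CPM (39.8 to 50.1). Paneth cells devote much of their mRNA to defensins and lysozyme, and the CPM of every other gene is a share of the same total. The part of this in the low Paneth-like level was not tested. The clusters that received no name had 133 CPM (cluster 5, led by *Slc40a1* and *Apol10a*), 117 CPM (cluster 3, led by the DNA replication genes *Dtl*, *Ccne2* and *Cdc6*) and 78.3 CPM (cluster 9, led by *Akr1c19* and *Lrg1*).

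In the *Tipe0*-/- library enterocyte-like and stem-like cells were again the highest epithelial classes and Paneth-like cells the lowest. Enterocyte-like cells had 101 CPM (88.3 to 114) and stem-like cells 85.8 CPM (74.7 to 98.2), a log2 ratio of 0.23 (-0.04 to 0.50). Cycling-like cells had 59.6 CPM (51.1 to 69.1), goblet-like cells 53.7 CPM (48.6 to 59.2), enteroendocrine-like cells 53.3 CPM (29.1 to 89.4), tuft-like cells 52.1 CPM (39.1 to 67.9) and Paneth-like cells 27.8 CPM (22.7 to 33.7). The position of enterocyte-like over stem-like cells moved with the clustering, between 0.04 and 0.28 in WT and between 0.23 and 0.65 in *Tipe0*-/-.

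Individual genes had their own distribution over the classes. *Igtp* was highest in enterocyte-like cells, at 70.1 CPM (63.2 to 77.5) in WT, against 45.1 CPM (37.2 to 54.3) in stem-like and 9.10 CPM (6.96 to 11.7) in Paneth-like cells. *Irgm2* followed *Igtp*, with 48.0 CPM (42.3 to 54.3) in enterocyte-like and 26.6 CPM (20.6 to 33.8) in stem-like cells. *Iigp1* had the opposite gradient, with 40.3 CPM (32.8 to 49.0) in stem-like cells and 12.0 CPM (9.21 to 15.3) in enterocyte-like cells, 3.36-fold more in the stem-like cells (log2 1.75, 1.29 to 2.23). In *Tipe0*-/- the *Iigp1* level was still higher in stem-like cells, at 8.83 CPM (5.53 to 13.4; 22 UMIs) against 3.84 CPM (1.76 to 7.29; 9 UMIs), with a log2 ratio of 1.16 (0.02 to 2.50).

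Cycling-like cells shared the stem-like levels of *Igtp* and *Irgm2* (39.0 and 25.8 CPM in WT) but not that of *Iigp1*, which was 6.18 CPM (4.14 to 8.88) there. *Iigp1* therefore made up 47.2% (40.3 to 54.1%) of the joint *Iigp1* and *Igtp* UMIs in WT stem-like cells, 45.5% (36.1 to 55.2%) in Paneth-like cells, 23.7% (19.8 to 28.0%) in goblet-like cells, 14.6% (11.4 to 18.2%) in enterocyte-like cells and 13.7% (9.36 to 19.1%) in cycling-like cells. *Irgm1* was flatter. In WT its level over the enterocyte-, stem-, cycling-, goblet- and tuft-like cells ran from 35.2 CPM (30.0 to 41.0) in cycling-like to 48.0 CPM (39.7 to 57.4) in stem-like cells, and Paneth-like cells had 10.4 CPM (8.14 to 13.2).

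*Gbp2* was unevenly spread over the goblet-like cells, a class that joins 3 clusters. In the largest, led by the secretory regulators *Spdef* and *Creb3l1*, *Gbp2* had 23 UMIs or 2.98 CPM in WT. In the other 2, whose leading genes include the mature goblet genes Zg16, Fcgbp and Clca1 and the interferon-gamma target *Ido1*, it had 26 UMIs or 21.7 CPM (cluster 7) and 27 UMIs or 41.5 CPM (cluster 12). *Ido1* was not among the genes used for clustering. *Gbp7* showed the same order, with 7.13, 22.5 and 29.2 CPM. *Igtp* was 32.9 CPM in the first, 25.9 CPM in cluster 7 and 70.7 CPM (46 UMIs) in cluster 12, so it was high in cluster 12 alone of the 3. The summed members were 113 CPM (105 to 120), 157 CPM (135 to 181) and 268 CPM (229 to 310) in WT, and 49.1, 89.9 and 72 CPM in *Tipe0*-/-. In *Tipe0*-/- *Gbp2* was 1.21 CPM (8 UMIs), 11.8 CPM (8 UMIs) and 15 CPM (5 UMIs) in these clusters, each a lower value than in WT. These counts are few and no interval is given for them, so a difference within a single cluster is uncertain.

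**Figure D2:**
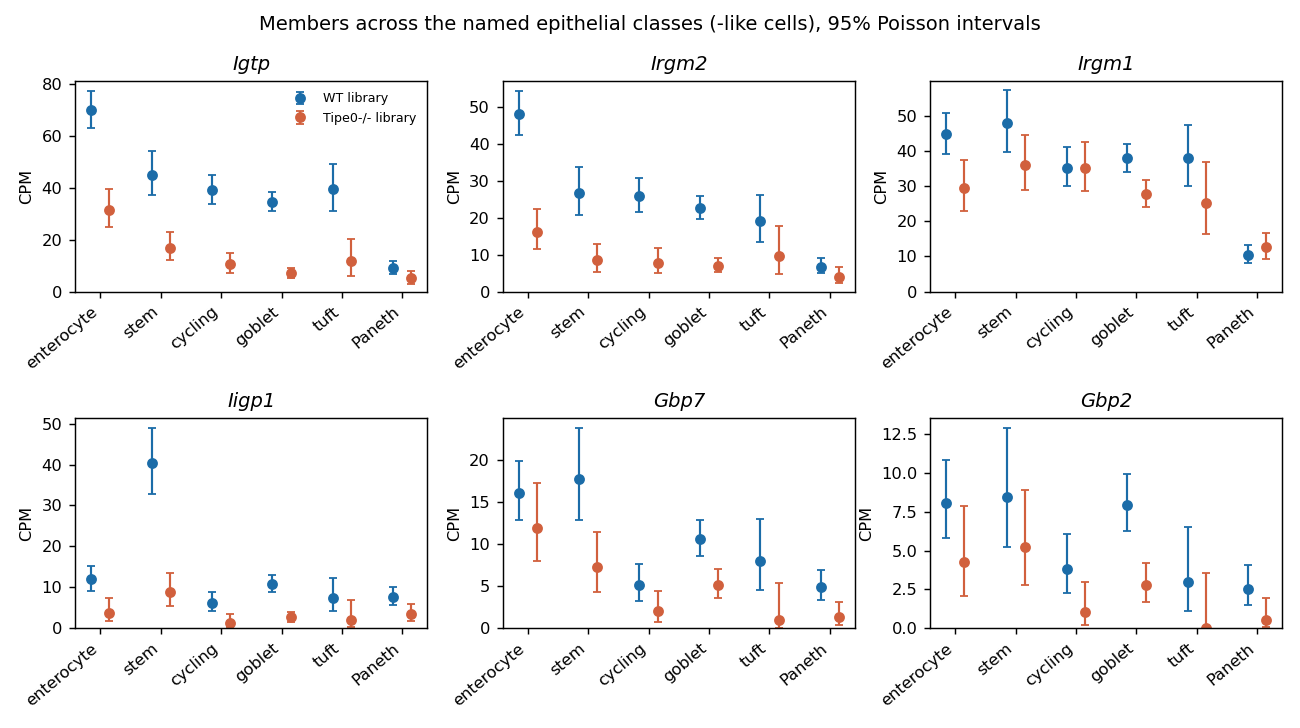
Levels (CPM, linear axes from 0, 95% Poisson intervals) of 6 of the genes in the 6 largest named epithelial classes of the WT and *Tipe0*-/- libraries. *Igtp* and *Irgm2* are highest in enterocyte-like cells, *Iigp1* in stem-like cells at 40.3 CPM in WT, and *Irgm1* is alike in both libraries in cycling-like cells.

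The lower level in *Tipe0*-/- was found in each epithelial class. The log2 ratio of the summed members was -1.26 (-1.43 to -1.10) in goblet-like, -1.20 (-1.67 to -0.78) in tuft-like, -1.19 (-1.43 to -0.96) in stem-like, -1.02 (-1.23 to -0.81) in enterocyte-like, -0.97 (-1.23 to -0.72) in cycling-like, -0.89 (-1.92 to -0.01) in enteroendocrine-like and -0.68 (-1.02 to -0.36) in Paneth-like cells. Thus 4 of the 8 named classes were at least 2-fold lower. In Paneth-like cells the median of all genes was itself 0.48, and relative to it the summed members were at -1.16. With this scaling inside each class 6 of 8 classes were at least 2-fold lower. The different sizes of these ratios were not tested. With the same makeup of classes in both libraries the overall ratio was -1.10, which does not remove differences in makeup within a class. The 3 goblet-like clusters had ratios of -1.20, -0.80 (cluster 7) and -1.87 (cluster 12), and the enterocyte-like clusters 1 and 8 had -0.87 and -1.57. Clustered more finely, at a resolution of 1.2, the enterocyte-like cells of the libraries lay partly apart: a cluster led by *U90926* and *Saa1* held 357 WT and 68 *Tipe0*-/- cells, and a cluster led by *Slc7a15* and *Pdzk1* held 8 and 130. The part of such differences in the class ratios was not tested.

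Gene by gene, goblet-like cells had 6 of the genes with at least 50 UMIs and 5 of them were at least 2-fold lower, against 1.42% of all genes tested in that class. *Igtp* went there from 34.6 CPM (31.0 to 38.6) to 7.09 CPM (5.33 to 9.25), 4.84-fold. In stem-like cells 4 of 5 were at least 2-fold lower (0.89% of all genes), led by *Iigp1* with 40.3 and 8.83 CPM. In enterocyte-like cells 3 of 6 were (1.67% of all genes), and *Igtp* at 70.1 and 31.6 CPM was among them, while *Gbp7* at 16.1 CPM (12.9 to 19.8) and 11.9 CPM (7.94 to 17.3) had intervals that overlap. In cycling-like cells 2 of 3 were (0.789% of all genes), and in Paneth-like cells 1 of 4 (0.515% of all genes), which was *Iigp1* with 51 UMIs in WT and 13 in *Tipe0*-/-.

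Of the 3 abundant regulators, *Irgm1* had the ratio nearest to 0 in each of these classes and in tuft-like cells. In cycling-like cells it had 165 UMIs (35.2 CPM, 30.0 to 41.0) in WT and 103 UMIs (35.1 CPM, 28.6 to 42.5) in *Tipe0*-/-, where *Igtp* had 39.0 and 10.5 CPM and *Irgm2* 25.8 and 7.83 CPM. In Paneth-like cells *Irgm1* had 10.4 CPM (8.14 to 13.2) in WT and 12.6 CPM (9.24 to 16.7) in *Tipe0*-/-, a log2 ratio of 0.27 (-0.30 to 0.82), which lies below the median of all genes in that class. In goblet-like cells it was 37.9 CPM (34.1 to 42) and 27.6 CPM (24.0 to 31.6).

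Among the named classes and unnamed clusters, the cells of cluster 3, led by genes of DNA replication, had the lowest ratio of the summed members, -1.82 (-2.29 to -1.40), although the goblet-like cluster 12 taken alone was at -1.87 (-2.57 to -1.27). The members other than *Irgm1* had 202 UMIs or 78.7 CPM (68.2 to 90.4) in 347 WT cells and 12 UMIs or 7.90 CPM (4.08 to 13.8) in 250 *Tipe0*-/- cells, a log2 ratio of -3.26 (-4.29 to -2.48). *Igtp* had 74 and 6 UMIs, *Irgm2* 49 and 4, *Iigp1* 33 and 1, and *Gbp7* 27 and 1. *Irgm1* had 99 UMIs (38.6 CPM, 31.4 to 47.0) and 38 UMIs (25 CPM, 17.7 to 34.4). In cycling-like cells, which carry genes of mitosis, the members other than *Irgm1* had 81.7 CPM (73.7 to 90.3) and 24.5 CPM (19.2 to 30.9). Whether the difference between these cell groups exceeds the spread between mice could not be tested.

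**Figure D3:**
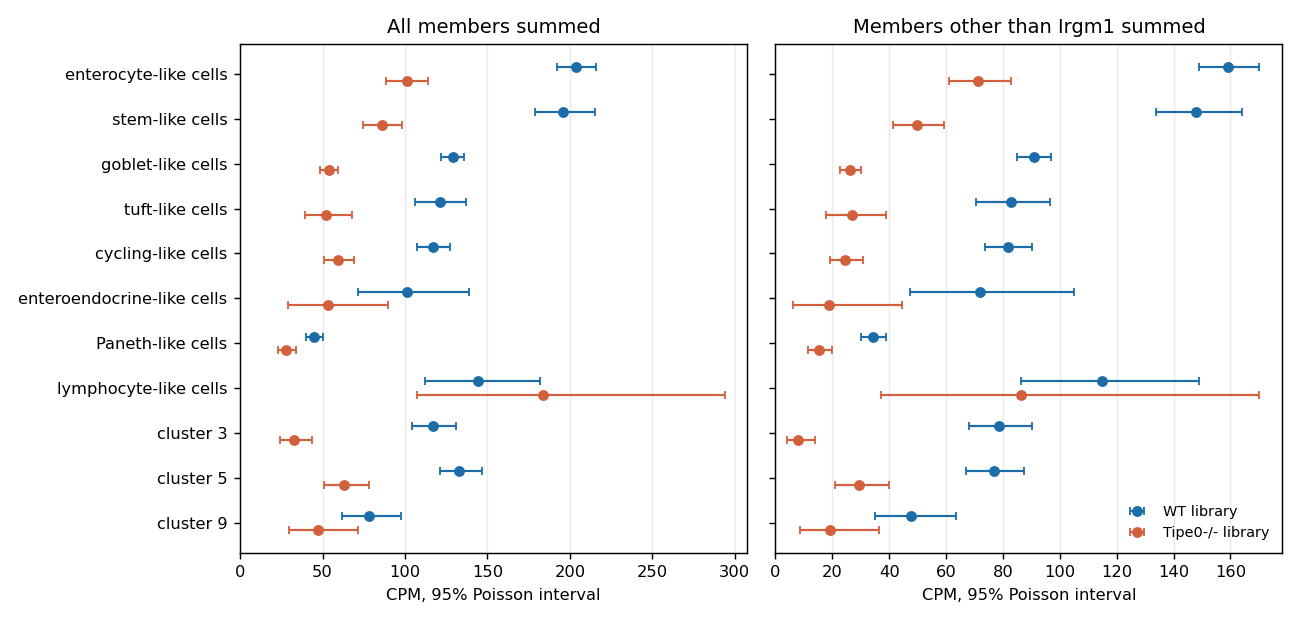
Summed level (CPM, linear axis, 95% Poisson intervals) of all members (left) and of the members other than *Irgm1* (right) in each cell class and unnamed cluster of the WT and *Tipe0*-/- libraries. In every epithelial group the *Tipe0*-/- point lies below the WT point, and cluster 3 drops from 78.7 to 7.90 CPM on the right; lymphocyte-like cells, 17 of them in *Tipe0*-/-, have wide intervals that overlap.

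The lower sums came with fewer cells in which a member was detected. After each cell was thinned to 3000 UMIs, a UMI of at least 1 member was present in 1021 of 3402 WT cells (30.0%, 28.5 to 31.6%), but in 318 of the 2006 *Tipe0*-/- cells (15.9%, 14.3 to 17.5%), and UMIs of 2 or more different members in 6.32% (5.53 to 7.19%) and 1.55% (1.05 to 2.19%). Without thinning these first shares were 59.2% and 38.0%. A thinned cell held on average 0.434 member UMIs in WT and 0.199 in *Tipe0*-/-. At such low counts the share largely follows the sum. Fewer cells with these RNAs and less of them per cell cannot be told apart. In stem-like cells the thinned shares were 38.1% (32.6 to 43.9%) and 14.5% (10.4 to 19.5%), in enterocyte-like cells 38.5% (34.7 to 42.5%) and 21.1% (16.6 to 26.1%). No cell type here is known to lack these genes, so a background share was not available. Among the lowest were those of enteroendocrine-like cells, 14.7% (4.95 to 31.1%; 5 of 34 cells) in WT and 5% (0.127 to 24.9%; 1 of 20 cells) in *Tipe0*-/-, and of cluster 3 in *Tipe0*-/-, 9.6% (6.25 to 13.9%), against 28% (23.3 to 33%) in WT. Paneth-like cells had 15.2% (11.3 to 20%) in WT and 10.8% (6.17 to 17.2%) in *Tipe0*-/-, with medians of 20981.5 and 26111 UMIs per cell before thinning against 6354 and 6919 in stem-like cells. The 10 richest cells held 4.15% of the member UMIs in WT and 9.91% in *Tipe0*-/-. The *Tipe0*-/- library had fewer cells and fewer member UMIs, which by itself raises the share of 10 cells.

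**Figure D4:**
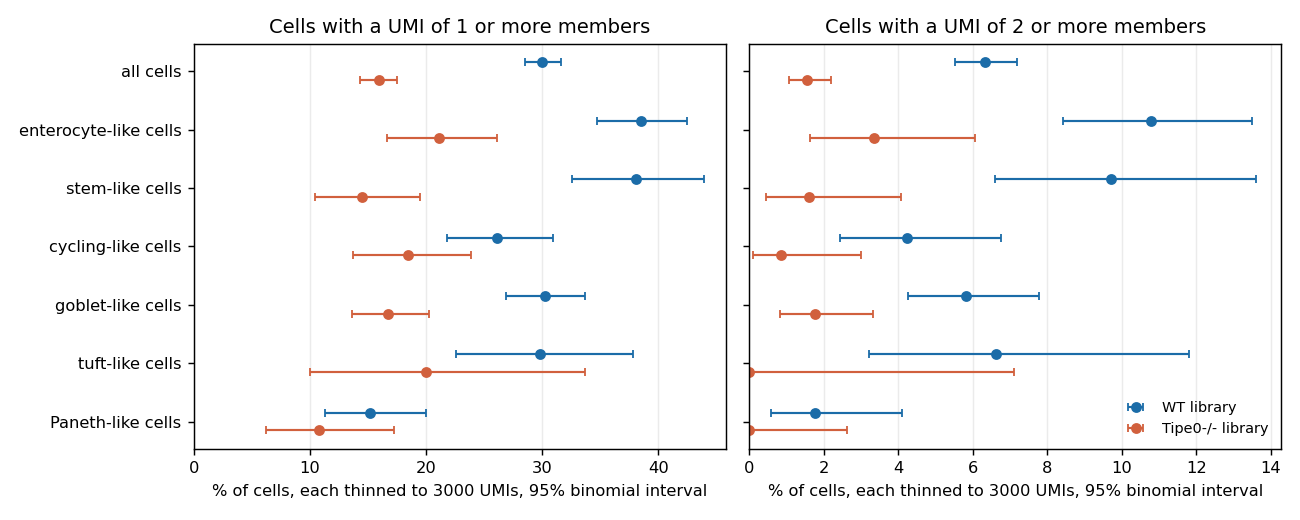
Share of cells (%, thinned to 3000 UMIs, 95% Clopper-Pearson intervals) with a UMI of at least 1 member (left) and of at least 2 members (right) in the WT and *Tipe0*-/- libraries. Over all cells the shares are 30.0% and 15.9% on the left and 6.32% and 1.55% on the right.

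The wider interferon pathway was read from lists of known genes. Of the ligands, *Ifng* had 8 UMIs in WT, 6 of them in lymphocyte-like cells, and 1 UMI in *Tipe0*-/-, also in a lymphocyte-like cell. The 8 type I and III interferon genes looked for had no UMI in either library, which at this depth allows at most 0.0787 CPM in WT and 0.126 CPM in *Tipe0*-/- for each. *Il18*, an epithelial cytokine that induces interferon-gamma in lymphocytes, was 16.5 and 15.3 CPM (log2 -0.11, -0.30 to 0.08). All 6 receptor chains were detected and none was 2-fold lower: *Ifngr1* was 64.0 CPM in WT and 79.3 CPM in *Tipe0*-/- (log2 0.31, 0.22 to 0.40) and *Ifngr2* was 65.3 and 61.9 CPM (log2 -0.08, -0.17 to 0.02). Log2 ratios of *Ifnar1*, *Ifnar2*, *Ifnlr1* and *Il10rb* lay at 0.22, 0.09, -0.08 and 0.11.

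The kinases that carry the signal were close to 0, with log2 ratios of -0.12 for *Jak1*, -0.02 for *Jak2* and 0.08 for *Tyk2*, and *Stat3* was at -0.02. Of the signalling genes that are themselves interferon targets, *Stat2* was 18.4 CPM in WT and 8.58 CPM in *Tipe0*-/- (log2 -1.10, -1.33 to -0.88) and *Irf9* was 19.9 and 16 CPM (log2 -0.31, -0.49 to -0.13). Of 10 interferon regulatory factors and co-activators, 3 were at least 2-fold lower: *Nlrc5* and *Ciita*, which switch on MHC class I and class II genes, both at -1.26, and *Irf7* at -1.06. *Batf2* was at -0.94. Of 7 inhibitors, 2 were at least 2-fold lower, *Usp18* (-1.92, -2.32 to -1.55) and *Socs1* (-1.63, -1.95 to -1.34), both known interferon targets, whereas the phosphatase gene *Ptpn2* was higher in *Tipe0*-/-, with 22.6 and 33.1 CPM (log2 0.55, 0.41 to 0.69). *Socs3* was at -0.54.

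The other genes listed with these GTPases lay on the same side, and the list also holds *Mx1* and *Rnf213* from outside the families. Of 21 listed, 18 were in the files and 8 had at least 50 UMIs; 2 of those were at least 2-fold lower, all 8 were below 0 and their median was -0.82. *Ifi47*, which encodes the GTPase Irgd, was 56.8 and 34.3 CPM (log2 -0.73, -0.85 to -0.61), and *Gm5431* was 7.19 and 2.68 CPM (log2 -1.42, -1.84 to -1.03). The listed gene *9930111J21Rik2* had 51 and 9 UMIs (log2 -1.76). *Gbp8* was at -0.97, *Gbp4* at -0.88 and *Mx1*, a dynamin-like antiviral GTPase, at -0.53. *Rnf213*, a large ring-finger ATPase listed with them, was 73.6 and 43.9 CPM (log2 -0.75, -0.85 to -0.65). *Irgq*, a member of the family by sequence, was 6.87 and 6.32 CPM (log2 -0.12, -0.42 to 0.17).

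Among other targets of interferon-gamma, 11 of 24 genes with at least 50 UMIs were at least 2-fold lower, all 24 were below 0 and the median was -0.92. The leading ones were *Ubd* (-2.67), a ubiquitin-like modifier, the MHC class I gene *H2-Q7* (-1.80), the peptide loader *H2-DMb1* (-1.56) and the nucleic acid sensor *Zbp1* (-1.54). Among targets shared with or typical of type I and III interferons, 15 of 32 were at least 2-fold lower and 31 were below 0, with a median of -0.97. They were led by *Ly6a* (213 CPM in WT and 30.2 CPM in *Tipe0*-/-, log2 -2.82), *Ifit3b* (-2.13), *Isg15* (-1.96) and *Oas3* (-1.72). For *Ly6a* the paper reports the opposite direction, higher RNA in *Tipe0*-/- enterocytes and ileal tissue by RT-PCR. It also reports more of the protein, Sca-1, by flow cytometry and staining. From its single-cell data, however, the paper reports fewer fetal-like stem cells in *Tipe0*-/- epithelia. It describes a split between fewer such cells and higher expression of their markers. The reason for the opposite directions of *Ly6a* was not tested. Since both lists hold known interferon targets, chosen with earlier results of these data known, their shared direction is a description.

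The genes that work with the GTPases at vacuoles lay closer to the median of all genes, which was 0.15, but mostly below it. Of 14 genes of the ATG8 conjugation machinery and the ubiquitin system that place or mark the GTPases, none was 2-fold lower, 8 were below 0, 11 were below the median of all genes and the list's own median was -0.07. Their summed level had a log2 ratio of -0.19 (-0.22 to -0.16). *Ube2l6*, the conjugating enzyme for *Isg15* and itself an interferon target, was lowest at -0.66, followed by *Map1lc3a* (-0.45), *Gabarapl2* (-0.28) and *Gabarap* (-0.27). Of 5 inflammasome genes with at least 50 UMIs none was 2-fold lower, with *Casp4* at -0.45, *Gsdmd* at -0.34, *Pycard* at -0.16 and *Aim2* at 0.06, and all 5 were below the median of all genes. The summed level of the inflammasome list had a log2 ratio of -0.17 (-0.19 to -0.14).

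**Figure D5:**
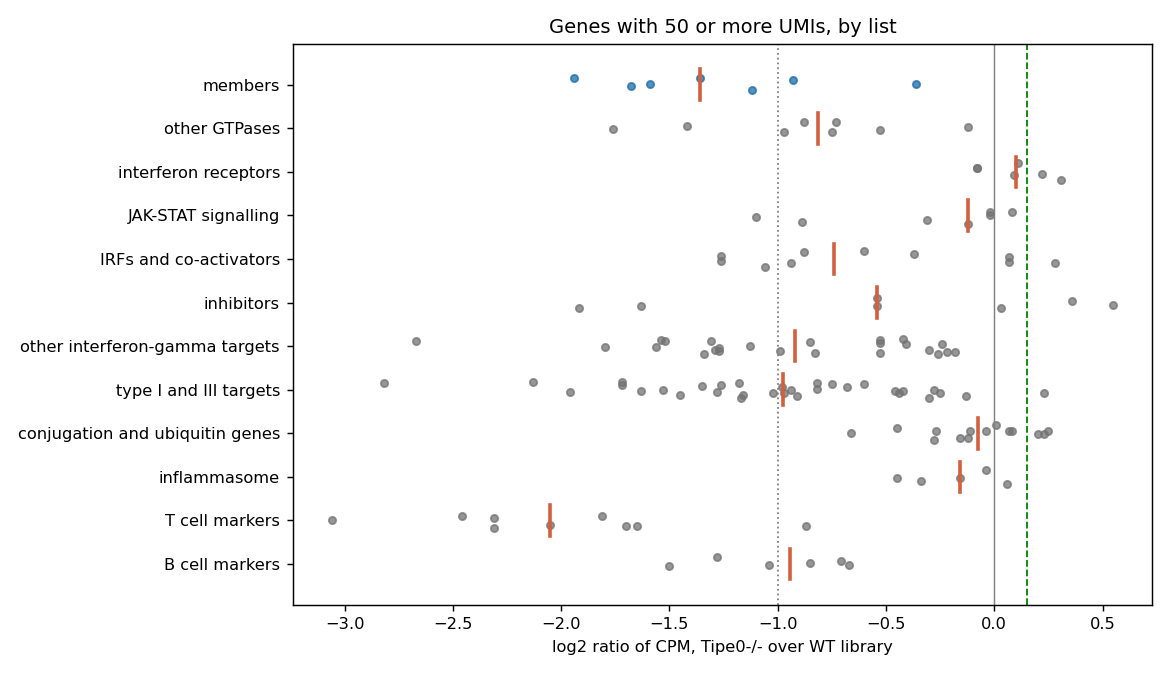
Log2 ratio of CPM, *Tipe0*-/- over WT, for each gene with at least 50 UMIs (points; spread within a row is for legibility only), by list; vertical bars are list medians, the dashed line is the median of all genes (0.15) and the dotted line marks 2-fold lower. The members (median -1.36) and the interferon targets (medians -0.92 and -0.97) lie to the left, the receptors (0.10) and conjugation genes (-0.07) nearer to the median of all genes.

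Patterns over the classes of both libraries were compared with that of the summed members. The most similar genes came mostly from the lists of the interferon pathway, 8 of 10. *H2-Q4* and *Nfkbiz* are in none of these lists. Across 16 points (8 named classes in each library; log2 of CPM + 1) and 9835 genes with at least 200 UMIs, the highest Pearson correlations included those of *Tap1* (0.949), *Cd74* (0.931), *H2-Ab1* (0.930), *H2-DMb1* (0.923), *H2-Aa* (0.899), *H2-Q4* (0.877), *Ifi47* (0.863), *Nfkbiz* (0.857) and *Nlrc5* (0.849). Of these, 6 belong to antigen processing and presentation (*Tap1*, *Cd74*, *H2-Ab1*, *H2-DMb1*, *H2-Aa* and *H2-Q4*). The points share 2 libraries and 8 classes, so these values are descriptive. Each correlation includes the difference between the libraries as well as that between classes, and the 2 were not separated. Among the members themselves *Igtp* was at 0.892, *Gbp7* at 0.819, *Irgm2* at 0.782, *Irgm1* at 0.775 and *Gbp2* at 0.564. *Iigp1*, with its stem-like maximum, was at 0.413. Each member is part of the sum, so its correlation with the sum is partly built in.

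Markers of T cells were lower in the *Tipe0*-/- library together with the interferon targets. All 9 T cell markers in the files had at least 50 UMIs, 8 of them were at least 2-fold lower, and their summed level was 117 CPM in WT and 24.2 CPM in *Tipe0*-/- (log2 -2.27, -2.40 to -2.15), with *Gzmb* at -3.06, *Gzma* at -2.46 and *Cd3d* and *Nkg7* at -2.31. Fewer such cells and less RNA per cell cannot be told apart in the sum. Lymphocyte-like cells were 2.70% of WT and 0.847% of *Tipe0*-/- cells. Within them the T cell markers were 5870 CPM in WT and 2470 CPM in *Tipe0*-/- (log2 -1.24, -1.45 to -1.05). The part of each in the lower sum was not tested. The B cell markers were at 19.9 and 10.2 CPM, with *Ms4a1* at -1.50, *Pax5* at -1.28 and *Vpreb3* at -0.85. Summed myeloid markers were 20.8 and 20.3 CPM (*Tyrobp* -1.57, *Lyz2* 0.81, *Fcer1g* -0.74, *Itgam* 0.21), a sum of genes with opposite ratios. They were 12.2 and 27.0 CPM in Paneth-like cells (log2 1.14, 0.71 to 1.58) and 11.4 and 7.68 CPM in enterocyte-like cells. The sum therefore does not measure myeloid cells alone. Stromal markers were 5.22 and 5.40 CPM (*Lyve1* 0.67, *Dcn* -0.58). Of the 199 stromal marker UMIs in WT, 101 came from 7 lymphocyte-like cells. Outside the lymphocyte-like cells the stromal markers were 2.60 CPM in WT and 5.34 CPM in *Tipe0*-/- (log2 1.03, 0.64 to 1.43). Of the 127 UMIs in *Tipe0*-/- there, 45 came from 9 cells of cluster 5. The dissociation genes *Atf3*, *Egr1*, *Fos* and *Fosb* were at -0.84, 0.65, 0.28 and 0.28, and none of the list with at least 50 UMIs was 2-fold lower or higher.

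T cell markers were also lower outside the lymphocyte-like cells, at 43.5 CPM in WT and 14.7 CPM in *Tipe0*-/- (log2 -1.57, -1.74 to -1.40). They were lower in each of the 7 epithelial classes, with log2 ratios of -3.16 in tuft-like, -3.11 in Paneth-like, -2.93 in enterocyte-like, -1.90 in cycling-like, -1.34 in stem-like and -1.19 in goblet-like cells, and with 10 UMIs in WT and none in *Tipe0*-/- in enteroendocrine-like cells. Of these classes, tuft-like cells had the highest WT level, 177 CPM, with a UMI in 49.7% of cells. Enterocyte-like cells came next at 47.1 CPM. The sum therefore need not measure T cells alone. In cluster 5 the T cell markers were 99.3 CPM in WT and 97.8 CPM in *Tipe0*-/- (log2 -0.02, -0.33 to 0.28). Their UMIs there came from 17.6% of the WT and 6.17% of the *Tipe0*-/- cells. The summed members there were 133 and 63.3 CPM (log2 -1.07, -1.43 to -0.74). B cell markers were lower outside the lymphocyte-like cells too, at 8.92 CPM in WT and 3.53 CPM in *Tipe0*-/- (log2 -1.33, -1.70 to -0.99). In stem-like cells their ratio was 0.10 (-1.10 to 1.31). Without the lymphocyte-like cells the summed members had a log2 ratio of -1.12, as large as with them. The part of the T cells or their interferon-gamma in the epithelial levels was not tested.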

How the data were processed

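The authors prepared 1 WT and 1 *Tipe0*-/- library with the 10x Chromium 3′ kit, ran Cell Ranger against mm10, and deposited raw UMI counts of 27998 genes per cell, without normalization. The labels name enteroids digested with collagenase and dispase, the methods isolated enterocytes digested with DNase I and Dispase.

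The genes and lists were chosen with earlier results of these data known. Named were all 10 members, the listed GTPases with at least 50 UMIs, every receptor and signalling gene, of each other list the 4 with the largest absolute log2 ratio, the 10 genes of the most similar pattern, and *Tnfaip8*. *Ifng* and the genes named for promoter matches or as leading genes of clusters were named after their values were seen. A marker of the B cell list and a signalling gene that the rule names are not reported here.

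UMIs were summed per library and class. CPM carry exact Poisson intervals, log2 ratios (0.5 added to each sum) exact binomial ones, shares Clopper-Pearson ones, all at 95%. A count of 0 was limited by 3 counts. "Lower" or "higher" by at least 2-fold was read only for genes with at least 50 UMIs. With 1 library per genotype no p-value was made. The steps were tested on simulated data.

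Clusters of all 5408 cells came from Seurat 5.3.0 (R 4.3.3; 14 principal components, resolution 0.8, 518 of 582 variable genes, after members, interferon lists and genes of the study's own genotype comparison were left out). A cluster was named by its highest class score, the mean z-score of the markers over its cells, where at least 3 markers were found in at least 10% of its cells and at 1.5 times the share of other cells. Of 14 clusters, 3 stayed unnamed; the enterocyte-like cluster 8 showed none of the class's markers in its 10 leading genes. Scrublet (Scanpy 1.11.5) called 15 WT and 3 *Tipe0*-/- cells (0.441% and 0.15%), too few to have worked, so no doublet was left out of the reported values. Cells were thinned with numpy 2.4.6 in Python 3.11.15. Motifs were searched in RefSeq windows; identities were aligned with Biopython 1.88. Alternatives were other totals, weights, cell sets and clusterings.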

Additional observations from a re-analysis of the deposited data

Results flagged for a closer look

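In lymphocyte-like cells the summed interferon-induced GTPases were higher in *Tipe0*-/- by a log2 ratio of 0.38 (-0.51 to 1.13), the opposite sign to that of the 7 epithelial classes. It rests on 69 UMIs in 92 WT cells and 17 UMIs in 17 *Tipe0*-/- cells, of which *Irgm1* gave 14 and 9, and without *Irgm1* the ratio was -0.33 (-1.69 to 0.67). The class mixes T and B cells, and its T cell markers were lower and its B cell markers higher in *Tipe0*-/- (log2 -1.24 and 0.97). The difference from the epithelial classes was not tested.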

How the results depend on the processing

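No paired analysis was possible because each genotype has 1 library. The overall log2 ratio of the summed members ran from -1.20 to -1.07 in the alternatives that kept all members and the CPM scale. It was -1.27 after scaling by the median ratio of all genes and -1.57 without *Irgm1*, an alternative chosen after seeing the data. Between 4 and 7 members were at least 2-fold lower, the 7 out of 10 with a minimum of 1 UMI. Between 4 and 6 named classes were, out of 7 or 8 depending on the clustering. The share of all genes past the same fold is not given for these alternatives. The 2.43% given above holds for genes with at least 50 UMIs, so the 7 cannot be read against it. The ratios of all 10 members stayed below 0 in every alternative (*Irgm1* -0.51 to -0.32). The ratio of enterocyte-like over stem-like cells was 0.05 in WT and 0.23 in *Tipe0*-/-. In WT it became 0.21 with all variable genes kept, 0.28 with cells named one by one and 0.25 without the cells of highest doublet score, and in *Tipe0*-/- 0.54 with 2000 variable genes by vst and 0.65 with all variable genes kept. In lymphocyte-like cells the ratio of the summed members turned to -0.85 with cells named one by one. The causes were not tested. Intervals cover counting error only, and at 1 library per genotype the spread between mice is unknown. Depth limits *Gbp6* and the enteroendocrine-like, tuft-like and lymphocyte-like cells most. *Tgtp1* and *Tgtp2* are limited by depth and by their identical 3′ ends.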

Other observations

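The second *Gbp6* row had no UMI in either library, which allows at most 0.0787 CPM in WT and 0.126 CPM in *Tipe0*-/-. *Gm4951*, a GTPase of the same family that had too few UMIs to be called, had 39 UMIs in WT and 1 in *Tipe0*-/- (log2 -4.04, -9.95 to -2.05), and *Gm4841* had 36 and 5 (log2 -2.06, -3.88 to -0.82). Within the enterocyte-like class, cluster 1, led by *Apoa4* and *Clca4a*, had summed members at 218 CPM (203 to 234) in WT and 119 CPM (103 to 137) in *Tipe0*-/-, and cluster 8, led by *Arg2* and *Clec2e*, had 177 CPM (158 to 197) and 59.0 CPM (42.5 to 79.8). In cluster 8 of the *Tipe0*-/- library neither *Iigp1* nor *Gbp7* had a UMI, against 26 and 19 UMIs in WT.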
